A study of Mus musculus with 12 samples.

Results

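Genes of the circadian clock and its heme-sensing arm, 10 in all, were followed through a hemin experiment on mouse colonoids: *Nr1d1*, *Nr1d2*, *Per1*, *Per2*, *Per3*, *Cry1*, *Cry2*, *Arntl*, *Npas2* and *Dbp*. They were taken by gene symbol from the expression table, which lists 54532 genes, and all 10 were found there, each once. All 10 also passed the filter on low values that left 12740 genes for testing.

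The circadian clock is a transcriptional loop that runs in most cells, the intestinal epithelium included. BMAL1, the product of *Arntl*, pairs with CLOCK or with NPAS2 and switches on the *Per* and *Cry* genes through E-boxes, and the PER and CRY proteins then repress that pair. The nuclear receptors REV-ERBα (*Nr1d1*) and REV-ERBβ (*Nr1d2*) form a further loop in which they bind heme as a ligand, recruit the NCoR corepressor and repress *Arntl* and *Npas2*, while DBP carries the rhythm to output genes through D-boxes. NPAS2 and PER2 are heme-binding proteins as well.

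Colonoids are cultures of the epithelial stem cells of the colon. They were grown from healthy colons of mice 8 to 12 weeks old, in L-WRN conditioned medium, from control *Hmox1* fl/fl animals and from *Hmox1* ΔIEC animals, in which Cre driven by the *Vil1* promoter removes floxed *Hmox1*, the gene for the heme-degrading enzyme HO-1, from intestinal epithelium. Both genotypes carry the floxed alleles, and each was given vehicle or hemin (the chloride of ferric heme) at 200 µM for 24 hours. Sequencing covered poly-A mRNA from 12 libraries, 3 to a group. The sources used here do not say whether the libraries of a group came from separate animals or cultures, so p-values measure the spread between libraries, which may be technical, and they do not give the clock time of harvest. With 1 time point per culture, a shift in the phase of a rhythmic gene and a change in its level cannot be told apart, and in bulk RNA neither can fewer cells of a type and less RNA per cell.

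Libraries held between 11648801 and 25101868 fragments on genes, and the clock genes held between 67 and 1874 fragments per library, so none was near the 3 fragments taken as the limit of detection. *Hmox1* checked the labels only in part. Its mean FPKM (fragments per kilobase, scaled to library depth, so that levels of different genes can be compared per length) was 7.45 in vehicle-treated controls and 2.52 in the vehicle-treated colonoids labelled KO, but 456 in hemin-treated controls and 1314 in the hemin-treated colonoids labelled KO. Under hemin it therefore went against the label, whole-gene FPKM do not separate the floxed part from the rest of the transcript, and these groups are called labelled KO throughout. The genotype label of replicate 3 of the hemin-treated colonoids labelled KO is also written differently, as floxed *Hmox1* with *Vil1* Cre. One small RNA gene, *Gm23935*, held 16.8%, 29.0% and 21.0% of the FPKM sum in control vehicle replicate 1, control hemin replicate 1 and labelled KO hemin replicate 2, and between 1.18% and 2.81% in each other library. All 7 epithelial markers were expressed, with sums of 5591 to 9843 FPKM per library, whereas the 5 immune markers summed to at most 0.522 FPKM, with 1 at 0 in every library, and the 6 stromal and endothelial markers to at most 0.250 FPKM. Control hemin replicate 3 stood apart among the clock genes. It was the lowest of its group for 7 of the 10 and the highest for 2, with a mean absolute deviation from the group mean of 0.20 on the log2 scale, against 0.03 to 0.15 in the other libraries.

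The loop is written in short motifs, so stretches around the transcription start that hold them are shown for the genes described below. RefSeq promoter windows (GRCm38.p6, 250 bases before to 50 after the start) were given for 9 of the 10 genes, in 11 windows, and none was given for *Per2*. Both strands were searched for the E-box CACGTG, the D-box written as TTATGTAA or TTACGTAA, the core of the REV-ERB and ROR element written as TAGGTCA or TGGGTCA, the cAMP response element TGACGTCA and the core of the antioxidant response element TGACNNNGC. Positions count from the start, which is position 0. The E-box stood in 2 of the 9 genes, in *Per1* at -166 to -161 and in *Cry1* at -60 to -55, and in 8.09% of all 27025 genes with RefSeq windows. The D-box occurred only in *Per3*, at -205 to -198 and again at -158 to -151, and in 1.23% of all genes. The REV-ERB and ROR core occurred only in *Arntl*, at 30 to 36 of its second window, after the start, and in 7.35% of all genes. The antioxidant core matched in 4 of the 9 genes (*Nr1d2*, *Per1*, *Cry1* and *Cry2*) against 14.0% of all genes, with 2 matches each in *Per1* and *Cry1*, those of *Cry1* overlapping one another, and the cAMP element matched in none of the 9 against 2.03% of all genes. A match is a description of the letters and not a site of binding. Capitals mark the E-boxes of *Per1* (chr11:69098699-69098948, plus strand) and *Cry1* (chr10:85185055-85185304, minus strand), the D-boxes of *Per3* (chr4:151044666-151044915, minus strand) and the REV-ERB and ROR core of *Arntl* (chr7:113207529-113207558, plus strand), each 5′ to 3′.
Per1: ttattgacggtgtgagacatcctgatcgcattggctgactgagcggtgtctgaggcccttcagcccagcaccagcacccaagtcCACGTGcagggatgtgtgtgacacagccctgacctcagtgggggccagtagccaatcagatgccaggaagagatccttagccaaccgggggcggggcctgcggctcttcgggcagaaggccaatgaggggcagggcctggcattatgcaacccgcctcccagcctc
Cry1: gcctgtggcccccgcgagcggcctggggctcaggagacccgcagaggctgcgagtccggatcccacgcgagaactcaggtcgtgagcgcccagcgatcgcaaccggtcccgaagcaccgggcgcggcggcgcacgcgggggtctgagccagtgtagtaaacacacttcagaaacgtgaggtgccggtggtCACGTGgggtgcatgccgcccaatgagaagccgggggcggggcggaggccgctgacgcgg
Per3: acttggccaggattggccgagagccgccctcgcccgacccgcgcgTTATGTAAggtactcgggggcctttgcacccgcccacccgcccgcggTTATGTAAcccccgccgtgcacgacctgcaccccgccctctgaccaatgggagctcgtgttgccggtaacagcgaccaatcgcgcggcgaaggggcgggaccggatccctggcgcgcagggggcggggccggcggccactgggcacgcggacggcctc
Arntl: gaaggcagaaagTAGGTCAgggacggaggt

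The clock genes were expressed at low to moderate levels, from 1.86 FPKM for *Dbp* to 14.9 FPKM for *Nr1d2*, and for 8 of the 10 the response to hemin differed between the genotypes. In what follows a gene rose or fell where limma on log2(FPKM + 1) gave a Benjamini-Hochberg adjusted p under 0.05 over the 12740 genes, and it was called where the log2 fold change also exceeded 1 in size. Fold changes are of FPKM + 1, also where FPKM means stand beside them. They therefore understate the ratio of those means, most of all in low genes. With hemin in controls, *Cry2* rose, *Cry1* and *Npas2* fell, and 7 of the 10 did not pass, so 3 of 10 passed where 49.9% of all genes did (23.2% higher and 26.7% lower), and 1 was called (*Npas2*) where 8.11% of all genes were. Without control hemin replicate 3, 4 passed there, and *Cry2* was called too (log2 1.14), as it was without control vehicle replicate 2 (1.03) or 3 (1.01). The share of all genes passing was not computed for fits that left out a library, so their counts cannot be set beside it. With hemin in colonoids labelled KO, 4 rose (*Cry2*, *Arntl*, *Per1* and *Npas2*) and 4 fell (*Dbp*, *Nr1d2*, *Per3* and *Per2*), which is 8 of 10 beside 60.4% of all genes (29.9% higher and 30.4% lower), with 2 called (*Cry2* and *Dbp*) beside 12.9%. Between the vehicle-treated genotypes, 5 were higher in those labelled KO (*Dbp*, *Per2*, *Nr1d1*, *Nr1d2* and *Per3*) and 2 lower (*Npas2* and *Cry1*), 7 of 10 beside 34.2% of all genes (17.4% higher and 16.8% lower), with none called by limma beside 6.8% (1 by limma-voom; 7 passed an unadjusted p of 0.05 as well, none of them past the fold limit). With each library left out in turn, 4 to 7 passed between the vehicle-treated genotypes. Between the hemin-treated genotypes, 6 were higher in those labelled KO (*Npas2*, *Cry1*, *Arntl*, *Nr1d1*, *Per1* and *Cry2*) and 2 lower (*Nr1d2* and *Per3*), 8 of 10 beside 34.4% (19.7% higher and 14.7% lower), with 1 called (*Npas2*) beside 6.01%. The response to hemin itself differed between genotypes (the interaction) in 8 of 10, beside 23.8% of all genes (13.3% positive and 10.5% negative), and 3 of these were called (*Npas2*, *Cry1* and *Dbp*) beside 5.13%. *Cry1* lay at 0.95 to 0.99, leaving 2 called, without control hemin replicate 3, control vehicle replicate 1, labelled KO hemin replicate 1 or labelled KO vehicle replicate 3, and at 0.87 with TPM and 0.90 with TPM without *Gm23935*. Rescaled to TPM, the numbers of clock genes that passed were 3, 6, 3, 4 and 5 of 10 in the order given, beside 31.4%, 46.9%, 19.1%, 16% and 8.29% of all genes. With TPM without *Gm23935* they were 3, 7, 6, 7 and 8, beside 50.5%, 60.4%, 35.9%, 33.2% and 24.5%. Groups did not overlap for 4 of 10 genes with hemin in controls (52.4% of all genes), 8 with hemin in those labelled KO (74.4%), 8 between the vehicle-treated genotypes (57.5%) and 8 between the hemin-treated ones (40.9%). Over the 10 genes the median log2 fold change was 0.02, 0.04, 0.24 and 0.44 in these comparisons, in the same order, and that of all genes lay between -0.01 and 0.04. The comparisons share groups, so their values stand side by side and are not independent of one another.

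**Figure D1:**
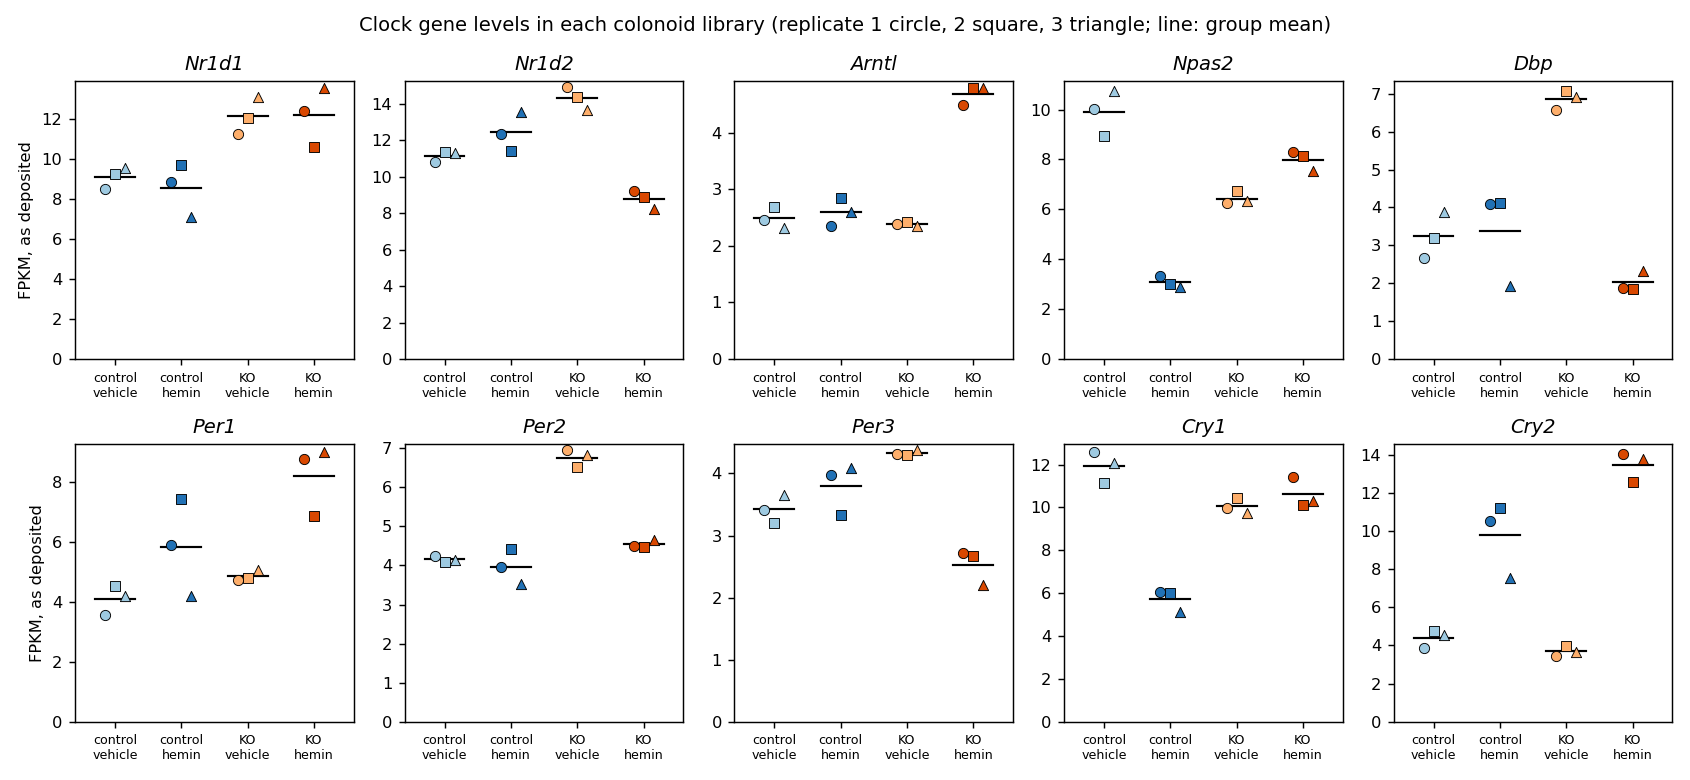
FPKM of each clock gene (vertical axis, linear, from 0) in the 12 colonoid libraries, grouped by genotype and treatment on the horizontal axis (KO: labelled KO), with replicates as circle, square and triangle and the group mean as a line. *Npas2* and *Cry1* were lowest in hemin-treated controls, *Dbp* and *Per2* highest in vehicle-treated colonoids labelled KO, and *Arntl* reached 4.49 to 4.79 FPKM with hemin in those labelled KO against 2.84 or less elsewhere.

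The REV-ERB genes are the heme-sensing repressors of the loop, and with hemin in the colonoids labelled KO *Nr1d2* fell while *Nr1d1* did not pass. *Nr1d1* (ENSMUSG00000020889, chr11:98767932-98775333 in mm10, minus strand) measured 8.49, 9.22 and 9.55 FPKM in vehicle-treated controls, 8.83, 9.70 and 7.09 in hemin-treated controls, 11.3, 12.03 and 13.1 in vehicle-treated colonoids labelled KO, and 12.4, 10.6 and 13.6 in hemin-treated colonoids labelled KO. Its levels followed genotype. All 6 libraries labelled KO lay above all 6 control libraries, and the treatments overlapped within each genotype. The difference between genotypes was 1.30-fold with vehicle (log2 0.38 ± 0.11, SE; adjusted p = 0.0235, limma) and 1.39-fold with hemin (log2 0.47 ± 0.11; adjusted p = 0.00775, limma), from means of 9.09 ± 0.543 and 12.1 ± 0.921 FPKM with vehicle and of 8.54 ± 1.33 and 12.2 ± 1.49 with hemin (SD, n = 3). Hemin gave log2 differences of -0.09 (95% interval -0.34 to 0.16) in controls and 0.00 (-0.25 to 0.25) in those labelled KO, and neither passed. The vehicle difference of *Nr1d1* was lost when control vehicle replicate 1 or 2, or labelled KO vehicle replicate 2 or 3, was left out (adjusted p 0.0559 to 0.0931, limma, with log2 0.33 to 0.39). On a TPM scale the differences were 0.52 with vehicle and 0.47 with hemin, and neither passed (adjusted p 0.0787 and 0.128, limma), and the hemin one was also lost in a fit of those groups alone (adjusted p = 0.0582, limma). With TPM without *Gm23935* the differences were 0.44 and 0.42, and both passed (adjusted p 0.0119 and 0.0164, limma).

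*Nr1d2* (ENSMUSG00000021775, chr14:18204054-18239127, minus strand) showed 10.8, 11.4 and 11.3 FPKM in vehicle-treated controls, 12.3, 11.4 and 13.6 in hemin-treated controls, 14.9, 14.4 and 13.7 in vehicle-treated colonoids labelled KO, and 9.23, 8.89 and 8.22 in hemin-treated colonoids labelled KO. The colonoids labelled KO thus held both the highest and the lowest group, and no neighbouring groups in the order overlapped. Hemin lowered it to 0.64-fold in the colonoids labelled KO (log2 -0.65 ± 0.07; adjusted p = 1.39e-05, limma), from 14.3 ± 0.624 to 8.78 ± 0.514 FPKM. In controls *Nr1d2* was at 11.1 ± 0.314 FPKM with vehicle and 12.4 ± 1.08 with hemin. That log2 difference of 0.14 did not pass (adjusted p = 0.111, limma), although without control hemin replicate 2 it was 0.20 and passed (adjusted p = 0.0353, limma). The response to hemin differed between genotypes by log2 -0.79 ± 0.10 (adjusted p = 0.000213, limma). Between genotypes, *Nr1d2* was 1.26-fold higher in those labelled KO with vehicle (log2 0.33; adjusted p = 0.00338, limma) and 0.73-fold with hemin (log2 -0.46; adjusted p = 0.000436, limma), so the sign of that difference turned with treatment, whereas for *Nr1d1* it was positive under both. On a TPM scale both differences of *Nr1d2* kept their sign (0.47 with vehicle and -0.45 with hemin) and did not pass (adjusted p 0.0607 and 0.0829, limma). With TPM without *Gm23935* they were 0.40 and -0.50, and both passed (adjusted p 0.00118 and 0.000247, limma).

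*Arntl* and *Npas2* encode the partners of the activating pair and are both REV-ERB targets, and with hemin in controls *Npas2* fell while *Arntl* did not pass. *Arntl* (ENSMUSG00000055116, chr7:113207465-113314126, plus strand) stood at 2.45, 2.69 and 2.32 FPKM in vehicle-treated controls, 2.35, 2.84 and 2.61 in hemin-treated controls, 2.38, 2.41 and 2.34 in vehicle-treated colonoids labelled KO, and 4.49, 4.79 and 4.79 in hemin-treated colonoids labelled KO. Only the last of these groups was high, and the other 3 overlapped along the order of their means. Hemin raised *Arntl* 1.68-fold on the scale of FPKM + 1 in the colonoids labelled KO (log2 0.75 ± 0.07; adjusted p = 4.46e-06, limma). The FPKM means went from 2.38 ± 0.0349 to 4.69 ± 0.176, a ratio of 1.97. In controls the log2 difference was 0.05 (95% interval -0.11 to 0.20). The interaction was 0.71 ± 0.10 (adjusted p = 0.000457, limma), or 0.58 on a TPM scale, where it did not pass (adjusted p = 0.133, limma). With TPM without *Gm23935* it was 0.61 and passed (adjusted p = 0.00173, limma). The hemin-treated group labelled KO, with the highest *Arntl*, is also the one in which *Nr1d2* was lowest, with *Nr1d1* at 12.2 FPKM against 12.1 with vehicle.

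*Npas2* (ENSMUSG00000026077, chr1:39193731-39363236, plus strand), whose protein binds heme, measured 10.0, 8.93 and 10.8 FPKM in vehicle-treated controls, 3.33, 3.02 and 2.89 in hemin-treated controls, 6.26, 6.73 and 6.32 in vehicle-treated colonoids labelled KO, and 8.29, 8.14 and 7.54 in hemin-treated colonoids labelled KO. The 4 groups were fully separate. Hemin lowered it to 0.38-fold in controls (log2 -1.41 ± 0.07; adjusted p = 1.25e-07, limma), from 9.90 ± 0.918 to 3.08 ± 0.224 FPKM, and in the colonoids labelled KO it was 1.21-fold higher with hemin (log2 0.27 ± 0.07; adjusted p = 0.00818, limma), at 6.43 ± 0.254 and 7.99 ± 0.401 FPKM, although on a TPM scale that increase was -0.02 and did not pass. The interaction of 1.69 ± 0.11 was the largest in size of the 10 genes (adjusted p = 1.83e-06, limma), and it lay at the 99.5th percentile of all genes tested. The labelled KO against control difference was log2 -0.55 with vehicle (adjusted p = 0.000168, limma) and 1.14 with hemin (adjusted p = 6.19e-07, limma).

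The *Per* genes encode the period repressors. *Per1* (ENSMUSG00000020893, chr11:69095217-69109960, plus strand), the period gene known for rapid induction by signals, showed 3.56, 4.53 and 4.20 FPKM in vehicle-treated controls, 5.90, 7.43 and 4.21 in hemin-treated controls, 4.75, 4.79 and 5.05 in vehicle-treated colonoids labelled KO, and 8.77, 6.88 and 9.01 in hemin-treated colonoids labelled KO. Hemin raised it 1.56-fold in those labelled KO (log2 0.65 ± 0.16; adjusted p = 0.00434, limma), and on a TPM scale the value was 0.36 and did not pass (adjusted p = 0.193, limma). With TPM without *Gm23935* the value was 0.45 and passed (adjusted p = 0.0299, limma). In controls the difference was 0.40 ± 0.16 and did not pass (adjusted p = 0.0535, limma). Control hemin replicate 3, at 4.21 FPKM, lay within the vehicle range, and without that library the difference was 0.59 (adjusted p = 0.00243, limma). It also passed without labelled KO hemin replicate 2 (adjusted p = 0.048, limma). The response did not pass the test of a difference between genotypes (log2 0.24, 95% interval -0.25 to 0.73). The higher level under hemin in those labelled KO than in controls (log2 0.45; adjusted p = 0.0476, limma) passed with overlapping groups, and it was lost when any library other than control hemin replicate 2 or labelled KO hemin replicate 2 was left out (adjusted p 0.0527 to 0.149, limma), at 0.26 without control hemin replicate 3.

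*Per2* (ENSMUSG00000055866, chr1:91415982-91459324, minus strand), the heme-binding period gene, held 4.24, 4.08 and 4.15 FPKM in vehicle-treated controls, 3.97, 4.43 and 3.52 in hemin-treated controls, 6.95, 6.51 and 6.83 in vehicle-treated colonoids labelled KO, and 4.51, 4.46 and 4.65 in hemin-treated colonoids labelled KO. Its high group was the vehicle-treated one labelled KO, 1.505-fold above vehicle-treated controls (log2 0.59 ± 0.07; adjusted p = 5.79e-05, limma). Hemin lowered it to 0.71-fold in those labelled KO (log2 -0.49 ± 0.07; adjusted p = 0.000113, limma), and in controls the difference was -0.06 (95% interval -0.21 to 0.10). The interaction was -0.43 ± 0.10 (adjusted p = 0.00882, limma), or -0.57 on a TPM scale, where it did not pass (adjusted p = 0.134, limma). With TPM without *Gm23935* it was -0.53 and passed (adjusted p = 0.00283, limma). Under hemin the genotypes were at 3.97 ± 0.455 and 4.54 ± 0.0996 FPKM, which did not pass (log2 0.16; adjusted p = 0.101, limma) unless control hemin replicate 2 was left out (log2 0.23; adjusted p = 0.0194, limma).

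*Per3* (ENSMUSG00000028957, chr4:151003652-151044665, minus strand), a period gene that the core loop can run without, measured 3.41, 3.21 and 3.65 FPKM in vehicle-treated controls, 3.98, 3.33 and 4.09 in hemin-treated controls, 4.32, 4.29 and 4.37 in vehicle-treated colonoids labelled KO, and 2.72, 2.68 and 2.21 in hemin-treated colonoids labelled KO. The order of its groups was that of *Nr1d2* and *Dbp*, with hemin-treated colonoids labelled KO lowest and vehicle-treated ones highest. Hemin lowered it to 0.66-fold in those labelled KO (log2 -0.60 ± 0.08; adjusted p = 0.000100, limma) and gave 0.12 in controls (95% interval -0.07 to 0.30), with an interaction of -0.71 ± 0.12 (adjusted p = 0.00138, limma). Under hemin *Per3* was lower in those labelled KO than in controls (log2 -0.44; adjusted p = 0.0018, limma). With vehicle it was higher by 0.27 (adjusted p = 0.0277, limma), a difference lost when control vehicle replicate 1 or 2 or any vehicle library labelled KO was left out (adjusted p 0.0668 to 0.102, limma, with log2 0.23 to 0.27) and on a TPM scale (0.39; adjusted p = 0.0637, limma). With TPM without *Gm23935* it was 0.32 and passed (adjusted p = 0.00883, limma).

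The cryptochrome genes encode the repressors that work with the period proteins, and with hemin in controls they moved in opposite directions. *Cry1* (ENSMUSG00000020038, chr10:85131700-85185064, minus strand) measured 12.6, 11.1 and 12.1 FPKM in vehicle-treated controls, 6.06, 6.0 and 5.10 in hemin-treated controls, 9.98, 10.5 and 9.75 in vehicle-treated colonoids labelled KO, and 11.4, 10.1 and 10.3 in hemin-treated colonoids labelled KO. Hemin-treated controls alone were low. *Cry1* fell there to 0.52-fold (log2 -0.95 ± 0.08; adjusted p = 2.64e-06, limma), from 11.9 ± 0.746 to 5.72 ± 0.539 FPKM, and in those labelled KO hemin gave 0.07 (95% interval -0.10 to 0.24). The interaction was 1.02 ± 0.11 (adjusted p = 7.22e-05, limma), and under hemin *Cry1* was 1.73-fold higher in those labelled KO (log2 0.79; adjusted p = 1.32e-05, limma). The vehicle difference of -0.22 (adjusted p = 0.0423, limma) was lost without control vehicle replicate 1 or 3, labelled KO hemin replicate 3 or any vehicle library labelled KO (adjusted p 0.059 to 0.136, limma, with log2 -0.25 to -0.19) and on a TPM scale (-0.09).

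*Cry2* (ENSMUSG00000068742, chr2:92403646-92434043, minus strand) stood at 3.86, 4.76 and 4.57 FPKM in vehicle-treated controls, 10.5, 11.2 and 7.56 in hemin-treated controls, 3.43, 3.96 and 3.67 in vehicle-treated colonoids labelled KO, and 14.1, 12.6 and 13.8 in hemin-treated colonoids labelled KO. It was the clock gene that rose with hemin in both genotypes. The rise was 1.98-fold in controls (log2 0.98 ± 0.12; adjusted p = 6.95e-05, limma), from 4.40 ± 0.476 to 9.78 ± 1.95 FPKM, and 3.09-fold in those labelled KO (log2 1.63 ± 0.12; adjusted p = 9.36e-07, limma), from 3.69 ± 0.269 to 13.5 ± 0.768 FPKM. The rise was larger in those labelled KO by log2 0.64 ± 0.18 (adjusted p = 0.0218, limma), a difference that did not pass without control vehicle replicate 2 or 3, labelled KO hemin replicate 1 or 3, or labelled KO vehicle replicate 1 (adjusted p 0.0511 to 0.0566, limma, with log2 0.59 to 0.63). Under hemin the higher level in those labelled KO was 0.44 (adjusted p = 0.0177, limma). It was 0.28 without control hemin replicate 3 and passed (adjusted p = 0.0208, limma), and it did not pass without labelled KO hemin replicate 1 or 3 (log2 0.41 and 0.43; adjusted p 0.0603 and 0.0563, limma). On a TPM scale neither this difference (0.44) nor that of the responses (0.53) passed. With TPM without *Gm23935* they were 0.39 and 0.54, and both passed (adjusted p 0.0342 and 0.0473, limma).

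*Dbp* (ENSMUSG00000059824, chr7:45705088-45710203, plus strand) encodes the D-box activator that serves as an output of the loop. It measured 2.67, 3.21 and 3.89 FPKM in vehicle-treated controls, 4.10, 4.13 and 1.92 in hemin-treated controls, 6.58, 7.07 and 6.91 in vehicle-treated colonoids labelled KO, and 1.88, 1.86 and 2.33 in hemin-treated colonoids labelled KO. As for *Nr1d2*, both extremes belonged to the colonoids labelled KO. Hemin lowered *Dbp* there to 0.38-fold (log2 -1.38 ± 0.19; adjusted p = 0.000102, limma), from 6.85 ± 0.251 to 2.02 ± 0.265 FPKM, and in controls the difference was 0.00 (95% interval -0.42 to 0.43). The interaction was -1.38 ± 0.27 (adjusted p = 0.00404, limma), and with vehicle *Dbp* was 1.86-fold higher in those labelled KO (log2 0.89; adjusted p = 0.00417, limma). Control hemin replicate 3, at 1.92 FPKM and 67 fragments, lay among the hemin-treated libraries labelled KO. With it the genotypes under hemin differed by -0.49 and did not pass (adjusted p = 0.0735, limma), and without it by -0.76 (adjusted p = 0.000377, limma).

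**Figure D2:**
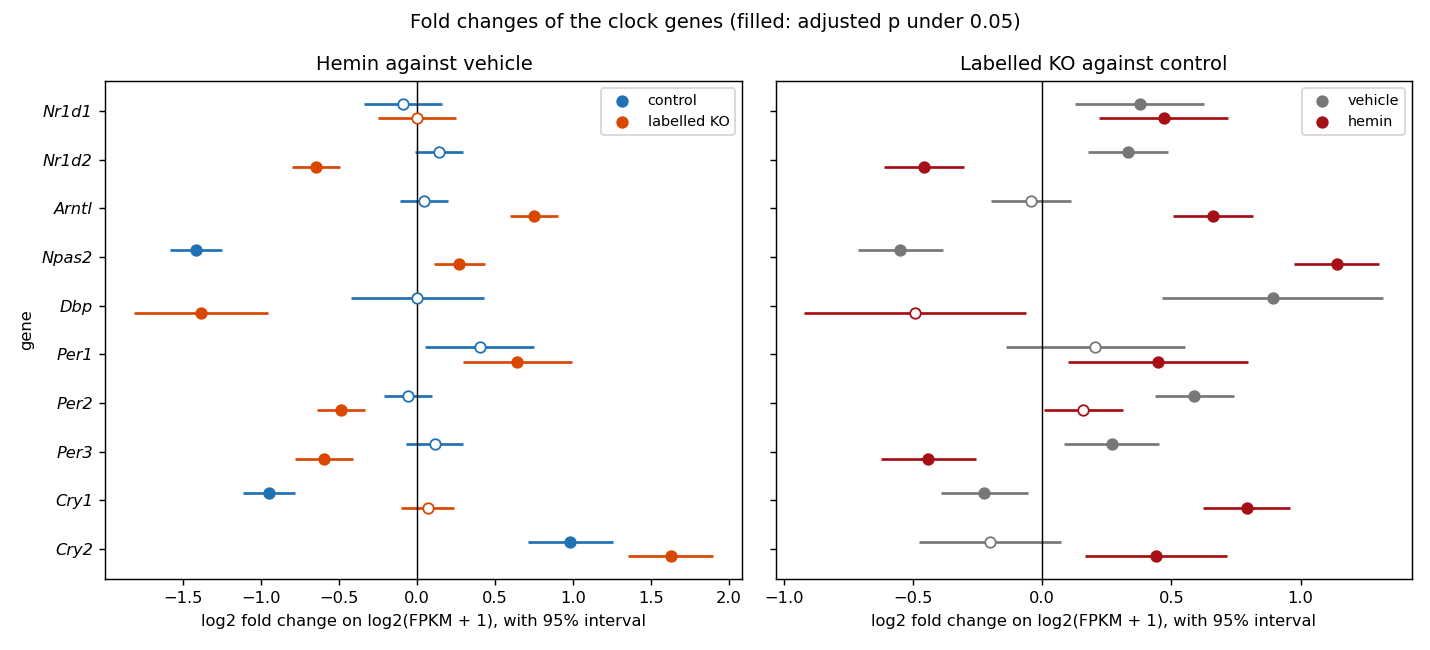
Log2 fold changes on log2(FPKM + 1) (horizontal axis) of the 10 clock genes (vertical axis) with 95% intervals from limma, for hemin against vehicle in control and labelled KO colonoids on the left and for labelled KO against control with vehicle and with hemin on the right; filled points passed an adjusted p of 0.05. In hemin against vehicle, *Npas2* and *Cry1* lay at -1.41 and -0.95 in controls and at 0.27 and 0.07 in those labelled KO, and *Dbp* at 0.00 and -1.38.

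Of the 4 genes whose proteins bind heme, *Npas2* alone fell with hemin in controls. *Nr1d1*, *Nr1d2* and *Per2* did not pass there, beside 49.9% of all genes passing. With hemin in the colonoids labelled KO, where 60.4% of all genes passed, *Nr1d2* and *Per2* fell, *Npas2* rose on the deposited scale and *Nr1d1* did not pass. All 4 passed between the vehicle-treated genotypes, with *Nr1d1*, *Nr1d2* and *Per2* higher and *Npas2* lower in those labelled KO, a comparison that 34.2% of all genes passed. On a TPM scale *Per2* and *Npas2* passed there, beside 19.1% of all genes, and the REV-ERB genes did not. With TPM without *Gm23935* all 4 passed, beside 35.9% of all genes. Their interactions were -0.79 for *Nr1d2*, -0.43 for *Per2*, 1.69 for *Npas2* and 0.09 for *Nr1d1*, the last of which did not pass (95% interval -0.26 to 0.44). The interaction passed for 23.8% of all genes.

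Several clock genes share their position with another gene in the file's coordinates, and strand-specific counting is not stated, so reads of overlapping genes cannot be told apart. *Nr1d1* overlaps *Thra*, the thyroid hormone receptor α gene on the opposite strand, over 1075 bases. *Thra* had group means of 7.79 to 8.09 FPKM and passed in no comparison, with log2 differences of -0.03 to 0.03 in those between groups. *Dbp* overlaps *Sphk2*, a sphingosine kinase gene, over 737 bases, also on the opposite strand, and *Sphk2* had group means of 13.9 to 19.6 FPKM and passed in no comparison. The other overlapping genes, *Camta1* at *Per3*, *D930015M05Rik* at *Cry2*, *Gm45355* at *Arntl*, and *Gm3617* and *Gm20428* at *Npas2*, stayed at or below 0.899 FPKM in every library.

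Ratios of a pair of clock genes within a library do not depend on how libraries are scaled. The pairs were chosen after the values were seen, and an exact two-sided permutation test of 3 against 3 cannot give a p below 0.1, so the ratios are descriptions. *Nr1d2* to *Nr1d1* was 1.27, 1.23 and 1.18 in vehicle-treated controls, 1.40, 1.18 and 1.91 in hemin-treated controls, 1.32, 1.19 and 1.04 in vehicle-treated colonoids labelled KO, and 0.745, 0.838 and 0.606 in hemin-treated colonoids labelled KO, the only group in which REV-ERBα had the more abundant transcript. *Cry1* to *Cry2* separated treatments. It ran from 2.34 to 3.27 in vehicle-treated controls and from 2.64 to 2.91 in vehicle-treated colonoids labelled KO, against 0.535 to 0.675 and 0.749 to 0.814 with hemin, so with hemin *Cry2* was the more abundant cryptochrome in all 6 libraries. *Npas2* to *Arntl*, the partners of the activating pair, was 3.32 to 4.63 in vehicle-treated controls, 1.06 to 1.41 in hemin-treated controls, 2.63 to 2.79 in vehicle-treated colonoids labelled KO and 1.57 to 1.85 in hemin-treated ones, with lower values under hemin in both genotypes and no overlap between any of the 4 groups. *Dbp* to *Arntl*, the output against its activator, was 2.76 to 2.95 in vehicle-treated colonoids labelled KO and 0.388 to 0.486 in hemin-treated ones, while the controls overlapped between treatments at 1.09 to 1.68 and 0.735 to 1.74. *Per3* to *Per1* was 0.245 to 0.389 in hemin-treated colonoids labelled KO and above that range in all other libraries. *Per2* to *Per1* was 1.35 to 1.46 in vehicle-treated colonoids labelled KO and 0.514 to 0.649 in hemin-treated ones. In controls it was 0.900 to 1.19 with vehicle and 0.596 to 0.837 with hemin, so it was lower with hemin in both genotypes, and the hemin-treated groups overlapped.

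**Figure D3:**
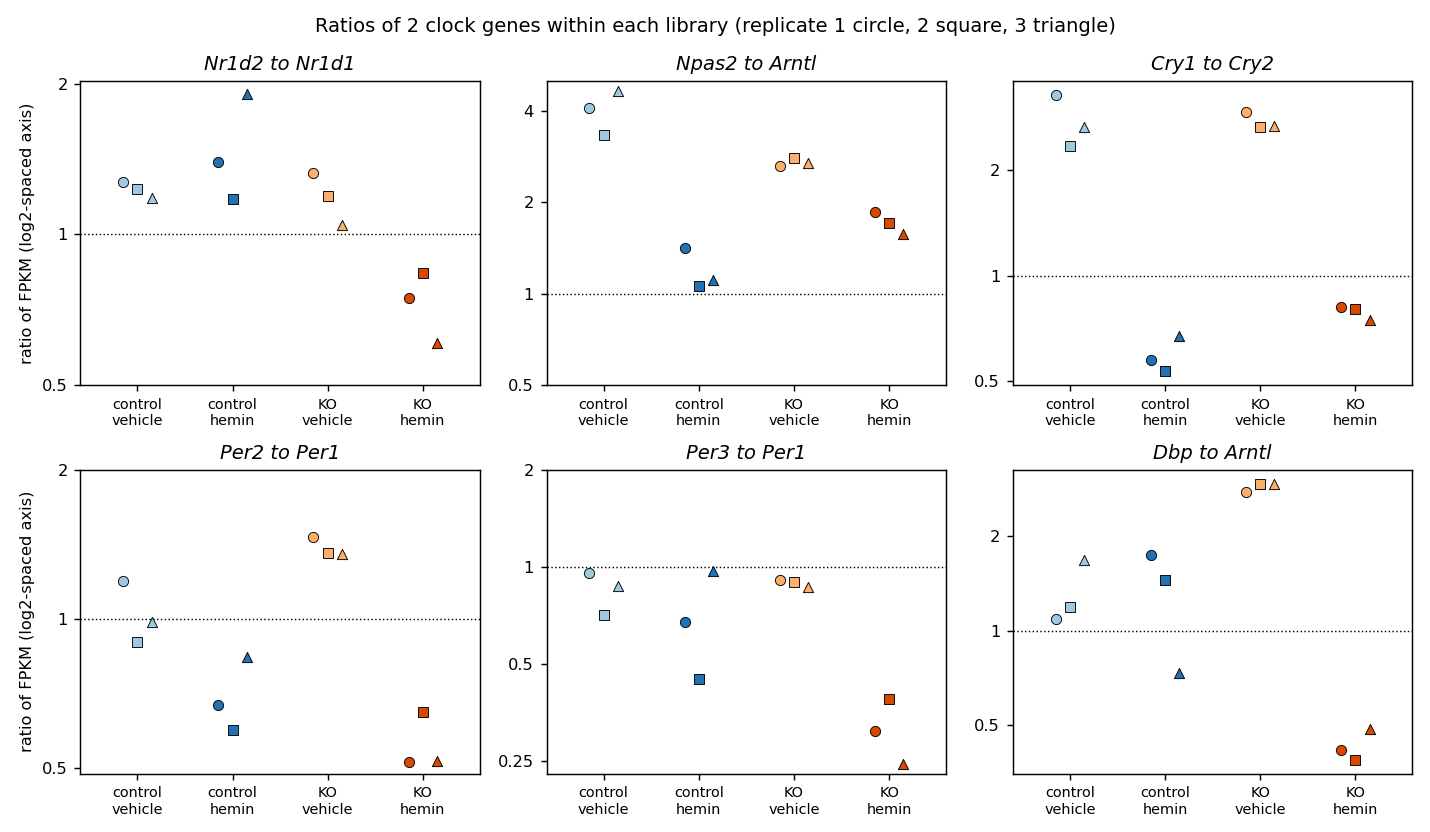
Ratios of FPKM of 6 pairs of clock genes within each library (vertical axis, log-spaced) by group (horizontal axis; KO: labelled KO), with replicates as circle, square and triangle and a dotted line at a ratio of 1. *Cry1* to *Cry2* lay above 1 in all 6 vehicle libraries and below 1 in all 6 hemin libraries, and *Nr1d2* to *Nr1d1* below 1 only in the 3 hemin-treated libraries labelled KO.

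The genes most like each heme-binding clock gene were ranked by Pearson correlation of log2(FPKM + 1) over the 12 libraries, which share 4 groups and so are not 12 independent points. For *Nr1d2* the closest of all tested genes was another clock gene, *Per3* (r = 0.971), ahead of *Gramd1b* (0.966) and *Ift140* (0.958). *Npas2* was likewise close to *Cry1* (0.977), second to *Ctgf* (0.979) and ahead of *Acer1* (0.970). The nearest genes to *Per2* were *Nkx2-2* (0.979), *Insm1* (0.979) and *Nfatc2* (0.978), of which *Nkx2-2* and *Insm1* are transcription factor genes of enteroendocrine cells. *Nr1d1* was nearest to *Hgfac* (0.964), *Sun2* (0.956) and *C130074G19Rik* (0.954).

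Markers of epithelial cell types and of dividing cells also differed between the groups. Their counts stand beside the shares of all genes that passed. These were 49.9% with hemin in controls and 60.4% with hemin in those labelled KO. Between genotypes they were 34.2% with vehicle and 34.4% with hemin. The summed FPKM of 5 enteroendocrine markers was 22.3 to 28.2 in vehicle-treated controls, 16.2 to 26.1 in hemin-treated controls, 128 to 133 in vehicle-treated colonoids labelled KO and 87.8 to 99.5 in hemin-treated ones. Most of the sum was *Chgb* (group means 17.5, 14.6, 90.5 and 65.0 FPKM). Of the 3 that passed the filter, *Chga*, *Chgb* and *Neurod1* were all higher in those labelled KO with vehicle, and with hemin *Chga* and *Chgb* were higher while *Neurod1* did not pass (0.32). *Neurod1* fell with hemin in both genotypes, from 0.973 to 0.506 and from 2.80 to 0.861 FPKM, *Chgb* fell in those labelled KO and did not pass in controls (-0.27), and *Pax6* and *Isl1* did not pass the filter. Sums of 10 proliferation markers were 332 to 362, 113 to 133, 475 to 477 and 205 to 234 FPKM in the same order of groups, and all 10 fell with hemin in each genotype. Goblet markers (6) summed to 1473 to 1744, 937 to 1325, 1949 to 2053 and 538 to 607 FPKM, with group means of 954, 791, 1047 and 224 FPKM for *Tff3* and 124, 10.3, 535 and 118 FPKM for *Spink4*. Between the vehicle-treated genotypes 2 of these 6 were higher and 3 lower in those labelled KO. With hemin 4 of the 6 fell in controls and 5 in those labelled KO. Colonocyte markers (6) summed to 2742 to 2989, 4835 to 7273, 1998 to 2049 and 3380 to 4227 FPKM, most of it from *Car1* (group means 2129, 4918, 1314 and 2849 FPKM). The members did not move together, with 3 higher and 3 lower between the vehicle-treated genotypes and 2 higher and 3 lower with hemin in those labelled KO. Stem cell markers (5) summed to 11.5 to 13.2, 4.81 to 6.74, 26.7 to 28.8 and 9.19 to 11.9 FPKM, and all 4 that passed the filter fell with hemin in each genotype. Of the 7 epithelial markers, 3 rose with hemin in controls, 6 rose and 1 fell with hemin in those labelled KO, and 4 were lower in those labelled KO with vehicle. Among the latter was *Cdx2*, an intestinal transcription factor gene, with group means of 202, 204, 48.7 and 82.3 FPKM. The part of these cell types in the clock gene differences was not tested.

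The wider clock pathway was followed through 28 further genes, of which 21 passed the filter. *Rora*, *Rorb*, *Hlf*, *Bhlhe41*, *Arntl2*, *Fbxl21* and *Usp2* did not, with group means of at most 0.873 FPKM. With hemin in controls 3 of the 21 rose and 6 fell, beside 49.9% of all genes passing in either direction, and with hemin in those labelled KO 7 rose and 5 fell, beside 60.4%. Between the vehicle-treated genotypes 2 were higher and 7 lower in those labelled KO, beside 34.2%, and between the hemin-treated ones 5 were higher and 5 lower, beside 34.4%. The response to hemin differed between genotypes in 9 of the 21, beside 23.8%. Rescaled to TPM, the numbers that passed were 8, 7, 3, 4 and 1 in the same order of comparisons, beside 31.4%, 46.9%, 19.1%, 16% and 8.29% of all genes. With TPM without *Gm23935* they were 12, 10, 8, 10 and 7, beside 50.5%, 60.4%, 35.9%, 33.2% and 24.5%. Without control hemin replicate 3, 14 passed with hemin in controls, and the share of all genes in that fit was not computed. *Clock*, the alternative partner of BMAL1, stood at 6.07 to 9.54 FPKM and passed in no comparison.

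*Nfil3*, the repressor that competes with DBP for D-boxes, changed opposite to *Dbp* in the colonoids labelled KO. It measured 5.78, 5.43 and 5.89 FPKM in vehicle-treated controls, 3.25, 4.01 and 3.30 in hemin-treated controls, 1.21, 1.23 and 1.70 in vehicle-treated colonoids labelled KO, and 4.01, 4.05 and 3.30 in hemin-treated colonoids labelled KO. Hemin lowered it in controls (log2 -0.57; adjusted p = 0.00085, limma) and raised it in those labelled KO (log2 1.01; adjusted p = 8.84e-06, limma), with an interaction of 1.58 ± 0.15 (adjusted p = 2.88e-05, limma), and with vehicle it was 0.35-fold in those labelled KO (log2 -1.499; adjusted p = 7.96e-07, limma). *Tef*, another D-box activator, rose with hemin in controls by 0.43 and did not pass in those labelled KO (0.04).

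*Cipc*, an inhibitor of CLOCK, was lower in those labelled KO by -0.54 with vehicle and -0.85 with hemin, and *Bhlhe40*, a repressor of the E-box loop, fell by 0.45 with hemin in controls and rose by 0.16 in those labelled KO. Of the 4 listed genes of the NCoR corepressor complex, which REV-ERB proteins recruit, *Ncor1* and *Tbl1x* passed in no comparison, *Hdac3* passed between the hemin-treated genotypes (-0.19), and *Tbl1xr1* was lower in 3 comparisons, by -0.32 with hemin in those labelled KO, -0.30 between the vehicle-treated genotypes and -0.38 between the hemin-treated ones.

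Among genes tied both to the clock and to other processes, *Timeless*, which acts in DNA replication, fell with hemin by 1.58 in controls and by 1.55 in those labelled KO, and *Wee1*, a cell cycle kinase gene, fell by 1.02 and by 0.77. Both were higher in those labelled KO, *Timeless* by 0.63 with vehicle and 0.67 with hemin and *Wee1* by 0.54 and 0.79, in the directions in which the proliferation markers moved. *Por*, the cytochrome P450 reductase gene, rose with hemin by 0.81 in those labelled KO and was lower there by -0.74 with vehicle. *Csnk1e*, a kinase gene for the period proteins, fell with hemin by 0.70 in controls and 0.34 in those labelled KO, while *Csnk1d* and the clock repressor gene *Ciart* passed in no comparison. *Gsk3b*, another kinase gene, rose with hemin by 0.37 in those labelled KO. *Btrc* and *Fbxw11* encode the ubiquitin ligase subunits that recognise phosphorylated period proteins. *Btrc* rose with hemin by 0.47 in controls and by 0.23 in those labelled KO, and *Fbxw11* rose by 0.31 in those labelled KO and did not pass in controls (0.01). Of the listed output genes, *Nampt*, which encodes an enzyme of NAD synthesis, rose with hemin by 0.38 in those labelled KO and was lower there by -0.46 with vehicle, *Tsc22d3* fell by 0.38 with hemin in controls, and *Tspan4* fell by 0.61 in those labelled KO.

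**Figure D4:**
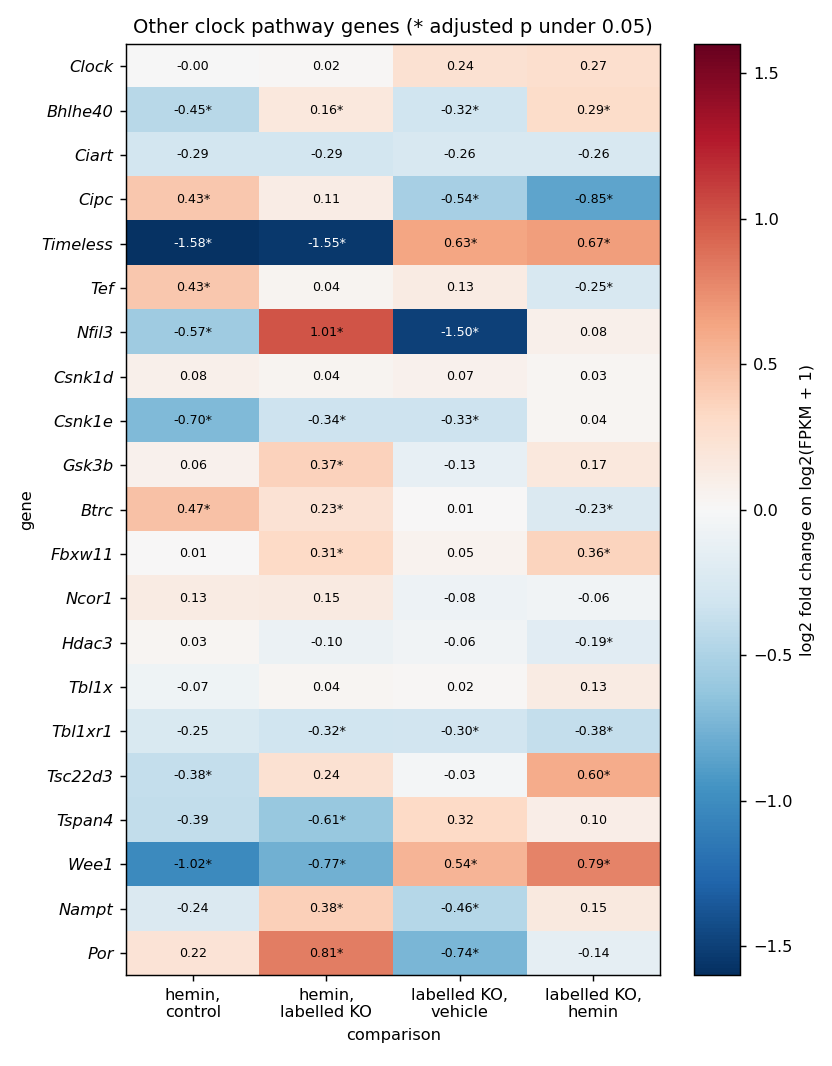
Log2 fold changes on log2(FPKM + 1) of 21 tested genes of the wider clock pathway (vertical axis) in 4 comparisons (horizontal axis), with red for higher and blue for lower in the hemin-treated or labelled KO group and an asterisk at an adjusted p under 0.05 from limma. *Nfil3* went from -0.57 with hemin in controls to 1.01 in those labelled KO, and *Timeless* fell in both, at -1.58 and -1.55.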

How the data were processed

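Poly-A mRNA of 12 mouse colonoid libraries (4 groups of 3) was analysed, with groups and replicate numbers taken from the sample labels. The libraries were prepared and sequenced by Novogene. The authors deposited FPKM for 54532 genes with coordinates and gene lengths in mm10. The submitters' processing notes name fastp, HISAT2 2.0.5 and featureCounts 1.5.0-p3, with roles and settings not given in the sources used here. The deposited FPKM had been scaled before deposit, as their median-of-ratios factors were equal in all libraries, and 100% of the values were whole multiples (within 0.01) of the value of 1 fragment. Gene length, the other column used, served to recover fragments, 11648801 to 25101868 per library, so counting error is largest for genes with few fragments.

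The remaining steps were run for this work in R 4.3.3 with limma 3.58.1 and in Python 3.11.15. Genes reaching FPKM 1 in 3 or more of the 12 libraries were kept (12740), and log2(FPKM + 1) was modelled in limma by group means, with an intensity trend (8 residual degrees of freedom before moderation). All adjusted p-values are Benjamini-Hochberg values over these genes. The fit was tested on simulated data. Every clock gene was named, along with *Hmox1*, genes overlapping a clock gene, pathway genes past an adjusted p of 0.05 and the 3 genes most like each heme-binding clock gene. The clock genes, the pathway and marker lists were chosen with earlier results of these data known, and *Clock*, *Ncor1*, *Tbl1x*, *Ciart* and *Csnk1d* were named after their values were seen. Beside the 28 pathway genes counted, 3 more that had been chosen for that list are not reported here. Alternatives were a pseudocount of 0.1, no filter, a mean FPKM of at least 5, TPM, TPM without *Gm23935*, a block for the replicate number, median-of-ratios scaling, the adjusted p alone, limma-voom on recovered fragments, no trend, fits of only the groups compared, and fits leaving out 1 library. Promoter windows came from RefSeq (GRCm38.p6).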

Additional observations from a re-analysis of the deposited data

Results flagged for a closer look

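The response to hemin (log2 fold change against vehicle) differed between the colonoids labelled KO and the controls for 8 of the 10 clock genes, by the interaction term of limma with adjusted p-values over all 12740 genes, 23.8% of which passed. On a TPM scale 5 of the 10 passed, beside 8.29% of all genes, and those of *Arntl*, *Cry2* and *Per2* did not (adjusted p 0.133, 0.283 and 0.134, limma). With TPM without *Gm23935* these did pass (adjusted p 0.00173, 0.0473 and 0.00283, limma), as did 24.5% of all genes. As deposited, the response was higher in those labelled KO by 1.69 for *Npas2*, 1.02 for *Cry1*, 0.71 for *Arntl* and 0.64 for *Cry2*. It was lower by -1.38 for *Dbp*, -0.79 for *Nr1d2*, -0.71 for *Per3* and -0.43 for *Per2*. *Nr1d1* (0.09) and *Per1* (0.24) did not pass. The response of *Npas2* was a fall in controls and, on the deposited scale, a rise in those labelled KO, that of *Cry1* a fall in controls with no pass in those labelled KO, that of *Arntl*, *Dbp*, *Nr1d2*, *Per3* and *Per2* a change in those labelled KO with no pass in controls, and that of *Cry2* a rise in both.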

How the results depend on the processing

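Of the values of single clock genes under the alternatives, 979 kept their direction and their side of the threshold, 56 lost and 7 gained the threshold and 28 changed sign. Many of the 979 could not change direction. Leaving out a library outside a comparison, or changing only the filter or the trend, leaves its log2 fold change as it was. Median-of-ratios factors were equal in all libraries, so that setting nearly repeated the main fit. Rescaling to TPM moved the median log2 fold change of all genes to -0.17 for controls with hemin, -0.28 for those labelled KO with hemin, 0.15 between the vehicle-treated genotypes and -0.11 for the interaction, and raised standard errors, for example of *Arntl* from 0.07 to 0.15. The increase of *Npas2* with hemin in those labelled KO, which had passed, became -0.0246 with TPM and 0.07 with TPM without *Gm23935*; relative to the median gene it was 0.28 as deposited and 0.25 with TPM. Passes lost with TPM were the interactions of *Arntl*, *Cry2* and *Per2*, *Per1* with hemin in those labelled KO, *Cry1*, *Nr1d1*, *Nr1d2* and *Per3* between the vehicle-treated genotypes and *Cry2*, *Nr1d1*, *Nr1d2* and *Per1* between the hemin-treated ones. Of these, TPM without *Gm23935* lost only *Cry1* between the vehicle-treated genotypes and *Per1* between the hemin-treated ones. The other reversals were of values that had not passed. With TPM, and then with TPM without *Gm23935*, these were *Arntl* with hemin in controls (-0.0865, -0.0320) and between the vehicle-treated genotypes (0.0621, 0.0023), *Cry1* and *Nr1d1* with hemin in those labelled KO (-0.24, -0.14 and -0.31, -0.21), *Dbp* with hemin in controls (-0.15, -0.0785) and the interaction of *Nr1d1* (-0.0493, -0.0204). With TPM alone, *Nr1d2* and *Per3* gave -0.0334 and -0.0348 with hemin in controls. Relative to the median gene, each of these kept its sign on both TPM scales except *Nr1d1* with hemin in those labelled KO (0.0051 as deposited, -0.0347 with TPM). *Dbp* with hemin in controls gave -0.0108 with a pseudocount of 0.1, and limma-voom gave -0.0111 for *Nr1d1* with hemin in those labelled KO. Leaving out each library gave ranges across 0 with hemin in controls for *Arntl* (-0.0028 to 0.10), *Dbp* (-0.13 to 0.27), *Nr1d1* (-0.18 to 0.0252) and *Per2* (-0.12 to 0.0106), and for *Nr1d1* with hemin in those labelled KO (-0.0717 to 0.0921) and in the interaction (-0.0220 to 0.18).

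Counts of called genes were, with hemin in controls, 1 as reported, 2 with TPM or TPM without *Gm23935*, 3 with limma-voom, a pseudocount of 0.1 or the adjusted p alone, and 1 to 2 with each library left out. With hemin in those labelled KO they were 2 as reported, 1 at a mean FPKM of at least 5 and 8 by the adjusted p alone. Between the vehicle-treated genotypes they were 0 as reported, 1 with TPM, limma-voom or a pseudocount of 0.1, and 7 by the adjusted p alone. Between the hemin-treated genotypes they were 1 as reported and 8 by the adjusted p alone, and for the interaction 3 and 8, with 2 on either TPM scale or at a mean FPKM of at least 5 and 2 to 3 when each library was left out. Counts past the adjusted p alone fell with TPM from 8 to 6 with hemin in those labelled KO, from 8 to 4 between the hemin-treated genotypes, from 7 to 3 between the vehicle-treated ones and from 8 to 5 for the interaction, beside 46.9%, 16%, 19.1% and 8.29% of all genes on that scale. A mean FPKM of at least 5 took *Arntl*, *Per2*, *Per3* and *Dbp* out of the test. With these genes absent, the counts were 4 with hemin in those labelled KO, between the vehicle-treated genotypes and for the interaction. With only the groups compared, 5 passed between the hemin-treated genotypes, and with each library left out 4 to 7 passed between the vehicle-treated ones. Shares of all genes were not computed for the mean FPKM filter, the groups compared alone or the fits leaving out a library.

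Replicate numbers did not pair the samples: same-numbered libraries had a mean correlation of deviations of -0.04 (-0.33 to 0.18, 18 pairs) against 0.02 for other pairs. With the replicate number as a block, called counts stayed at 1, 2, 0, 1 and 3, in the order hemin in controls, hemin in those labelled KO, vehicle, hemin-treated genotypes and interaction, and *Per1* between the hemin-treated genotypes was the 1 clock gene to lose its pass (0.45; adjusted p = 0.0804, limma). Only 3 libraries per group and the lowest fragment numbers, in *Dbp*, limit what could be detected.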
